A study of Mus musculus with 36 samples.

Results

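The 161 most abundant mRNAs of E14Tg2a mouse embryonic stem cells (mESCs, strain 129/Ola) were described under control conditions, 0.1 µg/mL G418 and 0.1 µg/mL puromycin. They were selected on the average read number, as the mRNAs with at least 10000 reads per library, from a table of 10325 mRNAs. The mRNAs with 1000 to 10000 reads, 3086 in number, served as the comparison group. Half-lives came from SLAM-Seq, in which RNA labelled with 4-thiouracil for 24 h was chased with excess uridine, and the loss of reads with U to C conversions was followed over time. All cells grew in 2i medium, and the antibiotics were present only in the chase medium. Cells were harvested at 0, 1, 2, 4, 8 and 24 h with 2 replicates, which gave 12 libraries per condition and 36 in all. E14Tg2a is a single established line, so the measurements cover 1 genetic background.

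The level of an mRNA is set by how fast it is made and how fast it decays, and mRNAs that are abundant in dividing cells are often long-lived. In such cells the most abundant mRNAs typically encode ribosomal proteins, translation factors, glycolytic enzymes and cytoskeletal proteins, and many are heavily translated. G418, an aminoglycoside, makes the ribosome accept wrong tRNAs, while puromycin enters the ribosome in place of a tRNA and releases the unfinished protein. The comparison addressed here is how the half-lives of the abundant mRNAs, which rest on the most reads, differed between these conditions.

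The deposited table names mRNAs by UCSC transcript identifiers. Of the 161 identifiers of the abundant mRNAs, 0 were found in the annotation used here, so no gene, protein class, position or sequence is attached to them, and the mESC identity could not be checked against marker genes. Every identifier was counted as 1 mRNA, and whether several of them belong to the same gene could not be checked. Each mRNA has 1 half-life per condition with the replicates already combined. There is thus no replicate error, no test of a treatment and no p-value below, and differences between groups of mRNAs are descriptions only. The SDs and quartiles given are over mRNAs, which are not replicates.

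The 161 abundant mRNAs made up 1.56% of the listed mRNAs and took 28.6% of the reads, an average of 4178152 of 14634046 reads per library. Their average read number lay between 10026 and 289411 (median 16786, quartiles 12218 and 28466). The 10 mRNAs with the most reads held 27.0% of the reads on abundant mRNAs, and the single most abundant one held 6.93%. At the read minimum the groups ran into each other without a gap. The 3 abundant mRNAs with the fewest reads had 10026, 10062 and 10072 reads and control half-lives of 197 min, 164 min and 647 min. The 3 mRNAs just below the minimum had 9982, 9872 and 9835 reads and control half-lives of 92.8 min, 336 min and 247 min.

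Abundant mRNAs had longer half-lives than the comparison group in every condition. In control mESCs their median half-life was 293 min (quartiles 189 and 494 min), against 185 min in the comparison group, 1.58 times as long. With G418 the median was 255 min (quartiles 179 and 404 min) against 177 min, 1.44 times as long. With puromycin it was 313 min (quartiles 201 and 650 min) against 194 min, 1.61 times as long. Most abundant mRNAs were on the long-lived side of the table. The control half-life exceeded the median of all 10325 mRNAs in 127 of the 161, the G418 half-life in 127 and the puromycin half-life in 134. The 95th percentile of all mRNAs was passed by 41 abundant mRNAs in control (25.5%), by 39 with G418 (24.2%) and by 47 with puromycin (29.2%).

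High abundance did not always go with a long half-life. The control half-lives of the 161 mRNAs ranged from 69.0 to 3379 min, the G418 half-lives from 64.7 to 2982 min and the puromycin half-lives from 55.0 to 3057 min. The half-life was at most 2 h in all 3 conditions for 4 abundant mRNAs (2.48%), against 187 (6.06%) of the comparison group and 526 (5.09%) of the whole table. It was above 8 h in all 3 conditions for 30 abundant mRNAs (18.6%), against 16 (0.518%) of the comparison group and 57 of all mRNAs. Abundant mRNAs were thus 30 of the 57 mRNAs with half-lives beyond 8 h in every condition. Among the 161 mRNAs, log2 read number and log2 half-life had Pearson correlations of 0.24 in control, 0.25 with G418 and 0.26 with puromycin, which describe mRNAs measured in the same libraries.

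**Figure D1:**
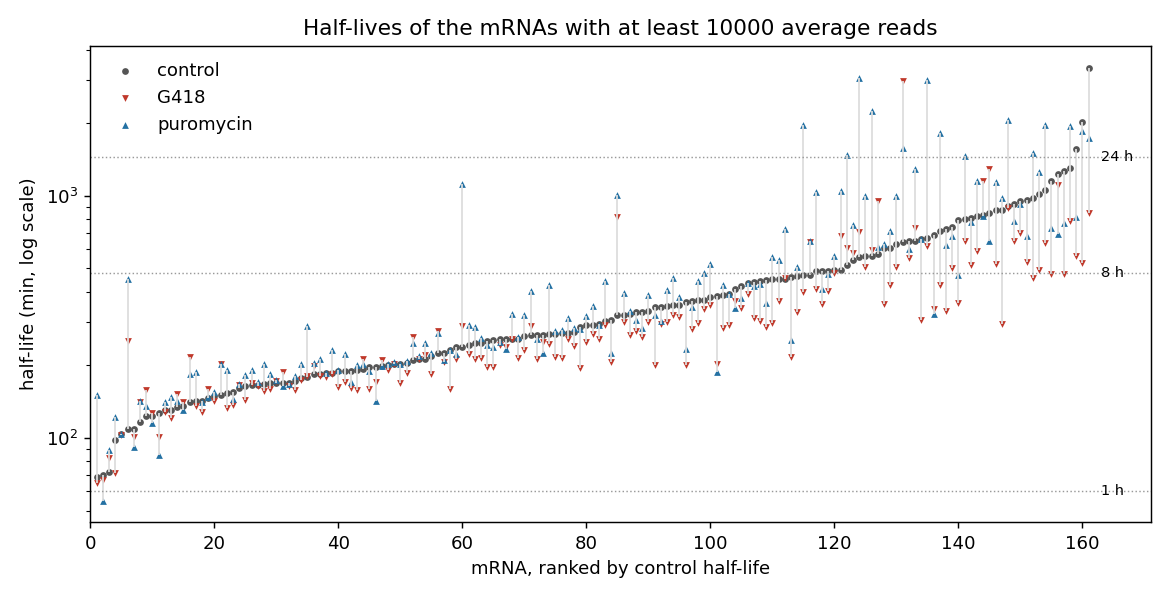
Half-lives in minutes (log scale) of the 161 mRNAs with at least 10000 average reads, ranked by control half-life, with circles for control, downward triangles for G418, upward triangles for puromycin and a grey line joining the values of each mRNA. G418 lay below control for 124 mRNAs, and the values spread apart most among the long-lived mRNAs at the right, where 14 puromycin half-lives lie above the 24 h chase.

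The mRNAs with the most reads show these values one by one. The most abundant mRNA, with 289411 reads, had a control half-life of 903 min, a G418 half-life of 892 min and a puromycin half-life of 2045 min. The second, with 171624 reads, was shorter-lived, at 216 min (control), 183 min (G418) and 224 min (puromycin). The third, with 132351 reads, had 294 min, 256 min and 291 min. In these 3 mRNAs the G418 half-life was the shortest, and only the first had a puromycin half-life far from its control half-life. The fourth, with 120560 reads, had a control half-life of 351 min, a G418 half-life of 300.3 min and a puromycin half-life of 408 min. The fifth, with 80728 reads, had 1012 min, 494 min and 1249 min. For each of the 10 mRNAs with the most reads, the G418 half-life was the shortest of the conditions, and the puromycin half-life was the longest for all but the third.

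With G418, half-lives were shorter than in control for 124 of the 161 abundant mRNAs (77.0%), against 55.7% of all mRNAs and 58.4% of the comparison group. G418 over control had a median log2 ratio of -0.16 (quartiles -0.39 and -0.018), which is a difference in half-life of -10.4%. In the comparison group it was -0.10 (quartiles -0.44 and 0.21), or -6.85%. The lower quartiles of both groups were thus close, while the upper quartile of the abundant mRNAs lay below 0 and that of the comparison group above it. With each condition centred on its median half-life over the whole table, the median of the abundant mRNAs was -0.090 and 68.3% of them had the shorter half-life in G418, against 52.7% of the comparison group and 51.6% of all mRNAs. Weighted by reads, 81.4% of the reads on abundant mRNAs belonged to the 124 mRNAs whose G418 half-life was the shorter, against 60.6% in the comparison group and 65.1% over all mRNAs.

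Large differences with G418 were few among the abundant mRNAs. The half-life was at least 2-fold shorter than in control for 13 of them (8.07%), against 12.0% of all mRNAs and 6.22% of the comparison group. It was at least 2-fold longer for 3 (1.86%), against 8.70% of all mRNAs and 2.72% of the comparison group. For 130 abundant mRNAs (80.7%) the half-lives in G418 and control were within 1.5-fold of each other, against 58.2% of all mRNAs and 73.9% of the comparison group.

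The lowest ratios of G418 over control belonged to uc008bpi.1 and uc008xnp.2. For uc008bpi.1 (10092 reads) the control half-life was 3379 min, the G418 half-life 849 min and the puromycin half-life 1734 min. For uc008xnp.2 (22258 reads) these values were 2013 min, 528 min and 1840 min. Both control half-lives are longer than the 24 h chase, so they lie outside the period in which decay was observed, as do both puromycin half-lives. The log2 ratio was -1.99 for uc008bpi.1 and -1.93 for uc008xnp.2. The highest ratios belonged to uc007lfk.2 and uc009ewa.1. For uc007lfk.2 (23826 reads) the control half-life was 642 min, the G418 half-life 2982 min and the puromycin half-life 1578 min, a log2 ratio of G418 over control of 2.22, with both antibiotic half-lives beyond the 24 h chase. For uc009ewa.1 (14669 reads) they were 321 min, 815 min and 1006 min, a log2 ratio of 1.34. The ratios of G418 and of puromycin over control share the control half-life, so an extreme control value moves both of them.

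With puromycin, half-lives were longer than in control for 100 of the 161 abundant mRNAs (62.1%), against 52.4% of all mRNAs and 54.1% of the comparison group. Puromycin over control had a median log2 ratio of 0.063 (quartiles -0.059 and 0.31), which is a difference in half-life of 4.45%. In the comparison group it was 0.049 (quartiles -0.27 and 0.38), or 3.42%. The medians of both groups were nearly the same, and the groups differed at the lower quartile. Centring each condition on its median half-life over the whole table left the abundant mRNAs with a median of 0.015 and 54.0% of them with the longer half-life in puromycin, against 50% of the comparison group and 49.7% of all mRNAs. The mean log2 ratio of the abundant mRNAs, 0.19, lay further from 0 than their median.

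The half-life was at least 2-fold longer with puromycin than in control for 14 abundant mRNAs (8.70%), against 13.0% of all mRNAs and 5.70% of the comparison group. Only 6 of the 14 had all half-lives within the 24 h chase. They are 4.11% of the 146 abundant mRNAs within that limit, against 5.45% of the comparison group and 12.8% of all mRNAs within it. The share of abundant mRNAs was thus above that of the comparison group over all half-lives and below it within 24 h. The half-life was at least 2-fold shorter with puromycin for 2 (1.24%), against 11.0% of all mRNAs and 4.28% of the comparison group. The highest ratio belonged to the mRNA with the eleventh most reads (62454 reads), with a control half-life of 557 min, a G418 half-life of 705 min and a puromycin half-life of 3057 min. The lowest belonged to an mRNA with 11148 reads, with a control half-life of 686 min, a G418 half-life of 342 min and a puromycin half-life of 325 min. In the first the antibiotics were far apart, and in the second they were close to each other and both below control.

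**Figure D2:**
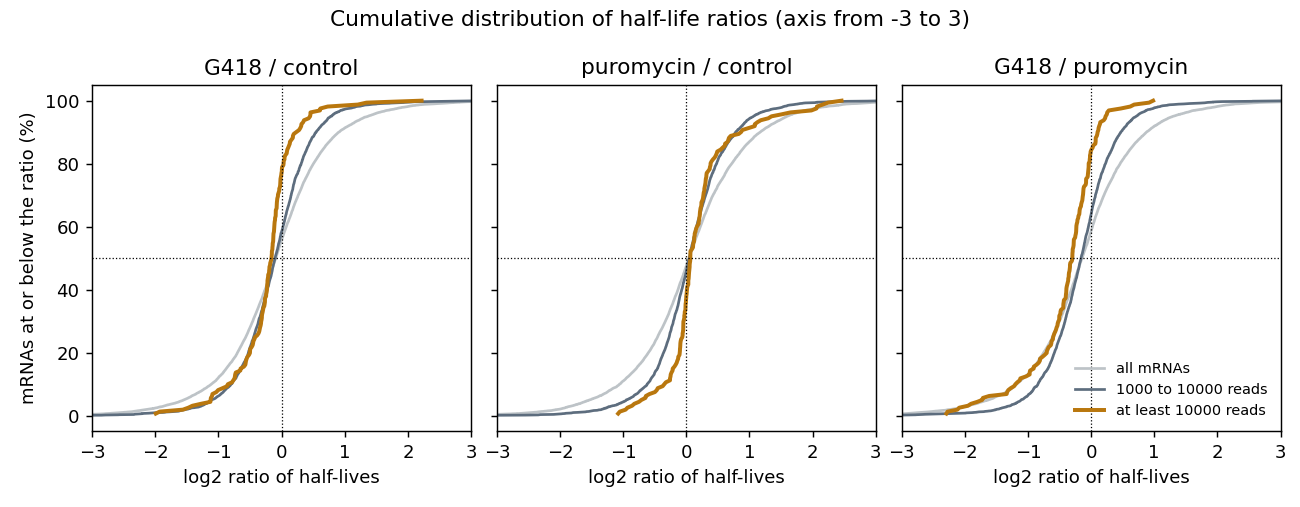
Cumulative distributions of the log2 ratios of half-lives within each mRNA, as the percentage of mRNAs (y axis) at or below a ratio (x axis), for mRNAs with at least 10000 reads, with 1000 to 10000 reads and for all mRNAs. The curve of the abundant mRNAs crosses 0 at 77.0% for G418 over control, 37.9% for puromycin over control and 83.9% for G418 over puromycin.

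The direct comparison of the antibiotics gave the median ratio furthest from 1. G418 gave the shorter half-life of the antibiotics for 135 of the 161 abundant mRNAs (83.9%), against 58.6% of all mRNAs and 63.8% of the comparison group. G418 over puromycin had a median log2 ratio of -0.30 (quartiles -0.59 and -0.078), which is a difference in half-life of -18.6%. In the comparison group it was -0.16 (quartiles -0.49 and 0.14), or -10.4%. When the conditions were centred in the same way, which takes a shift of -0.12 out of this log2 ratio, 116 abundant mRNAs (72.0%) had the shorter half-life with G418 and 45 (28.0%) the longer. The shorter half-life was then with G418 for 53.4% of the comparison group and 51.5% of all mRNAs. The median log2 ratio was -0.18 in the abundant mRNAs, -0.042 in the comparison group and -0.023 over the whole table.

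The half-life with G418 was at least 2-fold shorter than with puromycin for 20 abundant mRNAs (12.4%), against 13.1% of all mRNAs and 6.38% of the comparison group. It was at least 2-fold longer for 0 of the 161, against 8.10% of all mRNAs and 2.33% of the comparison group, and for 2 after centring. The closest to that limit was an mRNA with 41572 reads and half-lives of 1287 min with G418 and 651 min with puromycin, a log2 ratio of 0.98. The 20 mRNAs with the 2-fold shorter half-life in G418 held 20.5% of the reads on abundant mRNAs. Such mRNAs held 5.54% of the reads in the comparison group and 11.7% over all mRNAs. The most abundant mRNA was one of the 20, with 6.93% of the reads on abundant mRNAs and a puromycin half-life beyond the 24 h chase. Puromycin half-lives beyond the 24 h chase enter many of these ratios. Among the 146 abundant mRNAs with all half-lives within 24 h, a limit chosen after the values had been seen, 7 (4.79%) had the 2-fold shorter half-life with G418, against 6.17% of 3063 mRNAs of the comparison group and 12.8% of all 10257 within that limit.

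The half-lives of each mRNA can be ordered from shortest to longest in 6 ways, and the abundant mRNAs were spread unevenly over these. The order G418, control, puromycin was found for 68 of them (42.2%), against 23.1% of the comparison group and 20.6% of all mRNAs. The order G418, puromycin, control followed with 46 (28.6%), against 21.6% of the comparison group and 19.6% of all mRNAs, so that G418 gave the shortest half-life for 114 abundant mRNAs (70.8%), against 44.8% of the comparison group and 40.2% of all mRNAs. The order puromycin, control, G418 was the rarest with 5 (3.11%), against 10.6% of the comparison group and 12.4% of all mRNAs. After centring, G418, control, puromycin held 50 abundant mRNAs and puromycin, control, G418 held 14.

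The first of these orders, with a G418 half-life of at most 1/2 of that with puromycin, is the rule by which the study defined its G418-sensitive mRNAs. It was met by 13 abundant mRNAs (8.07%), against 8.28% of all mRNAs and 4.37% of the comparison group. The share of abundant mRNAs was thus close to that of the whole table, although the order without the 2-fold limit was more frequent. For these 13 mRNAs the median of the G418 half-lives was 494 min, that of the control half-lives 871 min and that of the puromycin half-lives 1499 min, so most of them were long-lived. Their control half-lives ranged from 69.0 to 1306 min. Only 5 of the 13 had all half-lives within the 24 h chase, which is 3.42% of the 146 abundant mRNAs within that limit, against 4.15% of the comparison group and 8.07% of all mRNAs within it.

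**Figure D3:**
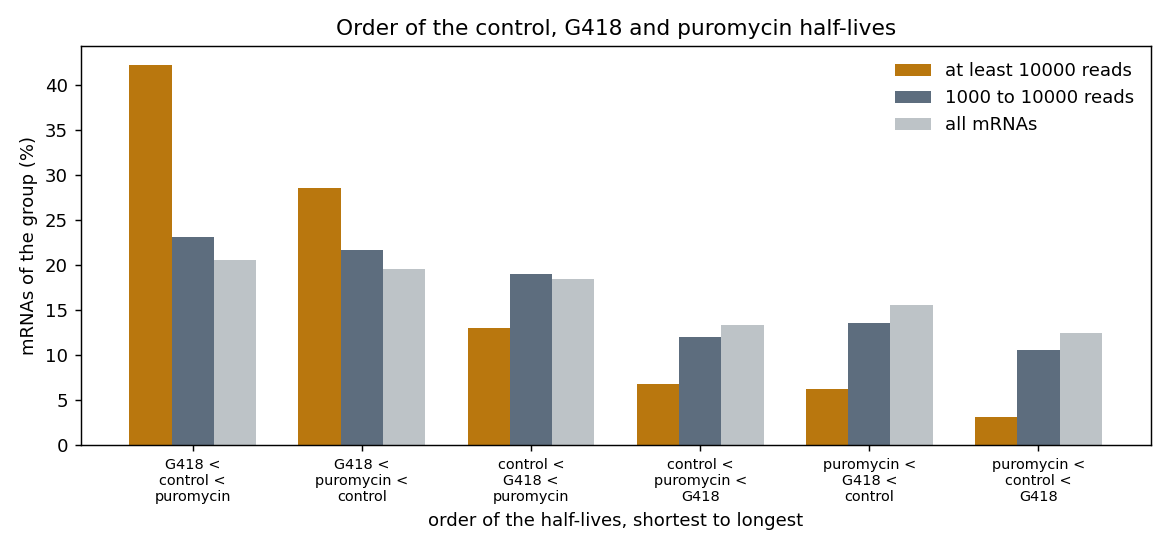
Percentage of mRNAs (y axis, from 0) in each of the 6 orders of the half-lives from shortest to longest (x axis), for mRNAs with at least 10000 reads, with 1000 to 10000 reads and for all mRNAs. The orders that begin with G418 hold 42.2% and 28.6% of the abundant mRNAs, and the order puromycin, control, G418 holds 3.11%.

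The differences between G418 and the other conditions were largest among the long-lived abundant mRNAs. To avoid sorting mRNAs by a half-life that enters the ratio, each ratio was described along the half-life in the remaining condition. For the 53 abundant mRNAs with the shortest control half-lives (69.0 to 211 min), G418 over puromycin had a median log2 ratio of -0.079. For the 54 in the middle (212 to 441 min) it was -0.30, and for the 54 with the longest control half-lives (444 to 3379 min) it was -0.69. The half-life with G418 was the shorter for 38, 49 and 48 of these mRNAs. The count of mRNAs with a 2-fold shorter half-life was 1, 1 and 18, so that nearly all of the 20 were long-lived in control. With all half-lives within 24 h, 39 of the 54 mRNAs with the longest control half-lives remained, with a median log2 ratio of -0.57, and 5 of them had a 2-fold shorter half-life. In the comparison group, divided in the same way into 1028, 1029 and 1029 mRNAs, the medians were -0.094, -0.16 and -0.27, and 50, 46 and 101 mRNAs had a 2-fold shorter half-life. Relative to the shift of -0.12 over the whole table, the median of the abundant mRNAs with the shortest control half-lives lies above 0, at 0.038, and those of the others below 0, at -0.18 and -0.57. The comparison group likewise has 0.022, -0.042 and -0.15 relative to that shift.

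G418 over control, sorted by the puromycin half-life, went the same way in its medians. The median log2 ratio was -0.071 for the abundant mRNAs with the shortest puromycin half-lives (55.0 to 223 min), -0.23 in the middle and -0.31 for those with the longest (457 to 3057 min). In the comparison group it was -0.025, -0.084 and -0.22. G418 gave the shorter half-life for 67.9%, 88.9% and 74.1% of the abundant mRNAs, most often in the middle, and for 51.9%, 58.1% and 65.0% of the comparison group, most often at long half-lives. After centring, the medians were -0.0025, -0.16 and -0.24 in the abundant mRNAs and 0.044, -0.015 and -0.15 in the comparison group. For puromycin over control, sorted by the G418 half-life, the medians were 0.038, 0.064 and 0.24 in the abundant mRNAs and 0.037, 0.054 and 0.055 in the comparison group. Centring turned the first of these medians to -0.010 in the abundant mRNAs and -0.011 in the comparison group and kept the sign of the others. The share of abundant mRNAs with the longer half-life in puromycin was 60.4%, 66.7% and 59.3%, so the long-lived mRNAs were not more often above 0. Among the 39 mRNAs with the longest G418 half-lives that lay within 24 h in all conditions, the median was 0.063 in place of 0.24. This limit leaves out puromycin half-lives beyond 24 h, which enter the ratio, so a lower median follows in part from the choice. Of the 14 abundant mRNAs with a 2-fold longer half-life in puromycin, 11 were among those with the longest G418 half-lives, against 92 of 176 in the comparison group. With all half-lives within 24 h, these counts were 3 of 6 and 86 of 167. Within that limit the share was not higher in the abundant mRNAs.

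**Figure D4:**
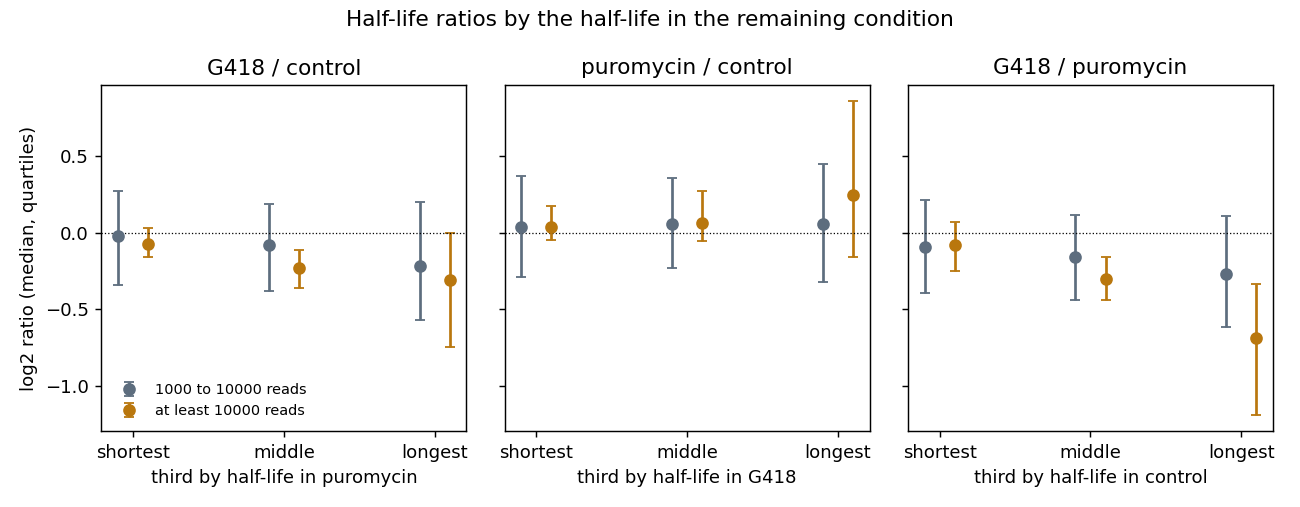
Median log2 ratio of half-lives (points) with quartiles (bars) for mRNAs divided into 3 equal groups by the half-life in the condition outside the ratio, for mRNAs with at least 10000 reads and with 1000 to 10000 reads. For G418 over puromycin the medians of the abundant mRNAs go from -0.079 (0.038 after centring) to -0.69 (-0.57) as the control half-life increases, and for puromycin over control the quartiles are widest, from -0.16 to 0.86 around a median of 0.24 (0.063 for half-lives within 24 h), where the G418 half-life is longest.

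Since the groups above cover different half-lives in abundant mRNAs and in the comparison group, both were also set side by side within the same windows, which were chosen after the values had been seen. At control half-lives of 2 to 4 h, the log2 ratios of G418 over puromycin had a median of -0.082 in 52 abundant mRNAs and -0.12 in 1670 mRNAs of the comparison group. At 4 to 8 h it was -0.35 in 56 abundant mRNAs and -0.25 in 763 others, and at 8 to 24 h it was -0.77 in 42 and -0.41 in 154, or -0.60 in 31 and -0.41 in 151 with all half-lives within 24 h. The medians of the groups were thus close at 2 to 4 h, where centring moved them to 0.035 in the abundant mRNAs and -0.0060 in the others, and further apart at long half-lives. For G418 over control, in windows of the puromycin half-life, they were -0.087 and -0.060 at 2 to 4 h (-0.018 and 0.0089 after centring), -0.23 and -0.22 at 4 to 8 h, and -0.32 and -0.24 at 8 to 24 h, with the abundant mRNAs first. At 4 to 8 h the medians for G418 over control were nearly equal, while G418 gave the shorter half-life for 88.0% of 50 abundant mRNAs and 66.2% of 819 others. For puromycin over control, in windows of the G418 half-life, the medians were 0.038 and 0.053 at 2 to 4 h, where centring moved that of the abundant mRNAs to -0.010, and 0.13 and 0.055 at 4 to 8 h. At 8 to 24 h the median was 0.47 in 31 abundant mRNAs and 0.0038 in 75 others, the latter turning to -0.044 after centring. With all half-lives within 24 h it was 0.21 in 20 abundant mRNAs and 0.072 in 72 others.

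The middle of the distribution of ratios was narrower among the abundant mRNAs than in the comparison group. Ratios beyond 2-fold were about as frequent or more frequent over all half-lives, but mostly rarer within 24 h. Across the 161 mRNAs, the log2 half-lives in control and G418 were correlated with Pearson's r of 0.87 and Spearman's rho of 0.92, against 0.65 and 0.68 over the 3086 mRNAs of the comparison group. For control and puromycin the Pearson correlation was 0.86 against 0.67, and for G418 and puromycin 0.88 against 0.67. These correlations are across mRNAs that share libraries and depth, and the quartiles of the half-lives lie further apart in the abundant mRNAs. The interquartile range of the log2 ratio of G418 over control was 0.37 in abundant mRNAs and 0.65 in the comparison group, that of puromycin over control was 0.37 and 0.65, and that of G418 over puromycin was 0.51 and 0.63. The SDs, which weigh the tails more, were closer, at 0.51 and 0.61, 0.59 and 0.63, and 0.56 and 0.60 for the same ratios. G418 and control half-lives were within 2-fold of each other for 90.1% of the abundant mRNAs and 91.1% of the comparison group. For puromycin and control these shares were 90.1% and 90.0%, and for the antibiotics 87.6% and 91.3%. Over all mRNAs they were 79.3%, 76.0% and 78.8% for the same pairs. With all half-lives within 24 h, G418 over control was at least 2-fold shorter for 6.16% and longer for 1.37% of abundant mRNAs. In the comparison group these shares were 5.84% and 2.64%. For puromycin over control they were 1.37% and 4.11%, against 3.95% and 5.45%. For G418 over puromycin they were 4.79% and 0%, against 6.17% and 2.22%. Over all mRNAs within 24 h they were 11.9% and 8.63%, 10.8% and 12.8%, and 12.8% and 8.04% for the same ratios. This limit leaves out the longest half-lives, so lower shares follow in part from it.

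The spread of the ratios was also described in bands of read number. The SD of the log2 ratio of G418 over control was 0.67 for 1813 mRNAs with 1000 to 2000 reads, 0.54 for 1030 mRNAs with 2000 to 5000 reads and 0.45 for 243 mRNAs with 5000 to 10000 reads. Among the abundant mRNAs it was 0.48 for 70 mRNAs with 10000 to 15000 reads, 0.56 for 55 with 15000 to 30000 and 0.49 for 36 with more. The SD was thus smaller with more reads up to 10000 and was not smaller above. The quartiles of G418 over control were closer together above 10000 reads as well, at -0.44 and 0.061 for 5000 to 10000 reads, -0.32 and 0.075 for 10000 to 15000, -0.49 and -0.087 for 15000 to 30000 and -0.33 and -0.021 with more. Those of G418 over puromycin were about as far apart in each band, at -0.49 and 0.0048 for 5000 to 10000 reads and -0.49 and -0.011, -0.60 and -0.082, and -0.65 and -0.18 in the bands above, with SDs of 0.50, 0.49, 0.59 and 0.64. The median control half-life was 260 min, 323 min and 462 min in these 3 bands of abundant mRNAs. G418 over puromycin had median log2 ratios of -0.27, -0.36 and -0.30 in the same bands, against -0.14, -0.17 and -0.23 in the 3 bands below 10000 reads. How far read number and half-life each account for the larger ratios was not tested.

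**Figure D5:**
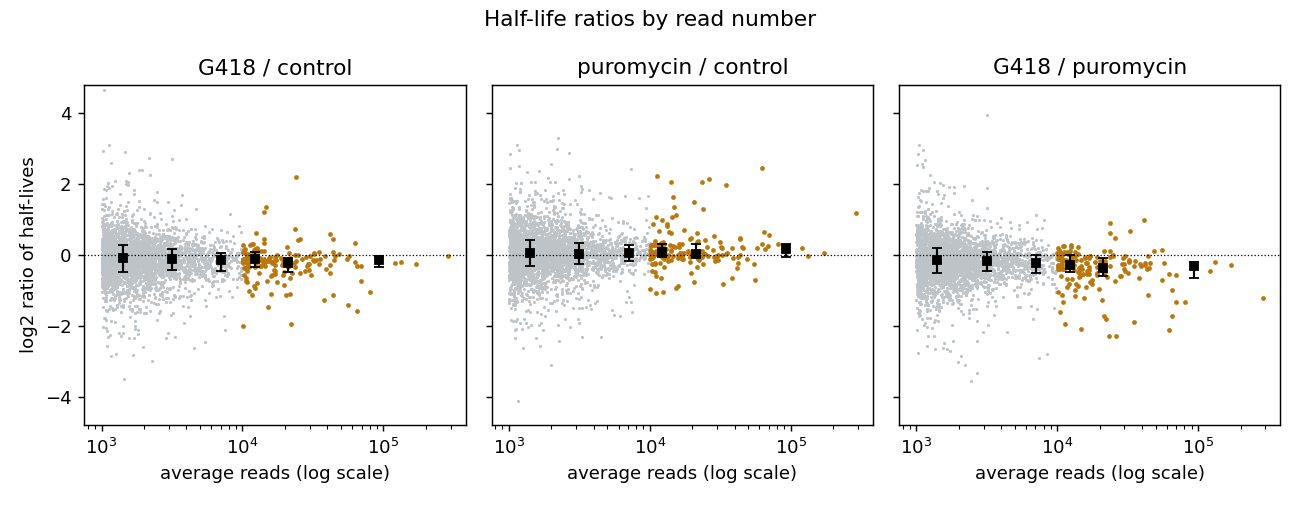
Log2 ratios of half-lives (y axis) against average read number (x axis, log scale) for mRNAs with at least 1000 reads, with those of at least 10000 reads in orange and black squares with bars for the median and quartiles of each read band. The median of G418 over puromycin is -0.14 in the band from 1000 to 2000 reads and -0.27, -0.36 and -0.30 in the bands from 10000 reads upwards.

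The length of the chase bears on the long half-lives. No time point lies between 8 and 24 h, and half-lives above 8 h were listed for 45 abundant mRNAs in control (28.0%), 32 with G418 (19.9%) and 51 with puromycin (31.7%). In the comparison group these shares were 5.35%, 2.56% and 6.09%, and over all mRNAs 5.37%, 3.35% and 6.27%. The 24 h chase was exceeded by the half-lives of 3 abundant mRNAs in control (1.86%), 1 with G418 (0.621%) and 14 with puromycin (8.70%). Such shares were 0.356%, 0.130% and 0.259% in the comparison group and 0.194%, 0.107% and 0.387% over all mRNAs. Limiting the abundant mRNAs to the 106 with half-lives of at most 8 h in all conditions, an alternative chosen after the values had been seen, gave a median log2 ratio of -0.13 for G418 over control, 0.044 for puromycin over control and -0.22 for G418 over puromycin.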

How the data were processed

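Half-lives were measured by SLAM-Seq in 36 libraries, assigned to conditions by their titles. Bowtie2 (version not given in the sources used here) was used by the authors to place paired-end reads on mouse transcripts. The paper's methods name mm10, and the submitters' processing notes list mm10 and GRCm39. The authors computed the fraction of converted reads per mRNA and time point and fitted an exponential decay. The authors deposited, for every mRNA, 1 half-life (min) in each condition and an average read number, whose product with 36 was whole (within 0.01) for 100% of mRNAs, that is, a mean over all libraries. The depth of single libraries, any read filter and any scaling between conditions are not given in the sources used here. A longer half-life itself adds to abundance, so read number and half-life are not independent.

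The mRNAs with at least 10000 average reads were selected, and log2 ratios of half-lives within each mRNA were summarised by medians, quartiles and counts, beside mRNAs with 1000 to 10000 reads and all 10325. Except where centring or a limit on half-lives is stated, no value was rescaled or filtered. No test was made. The group, the comparisons and the lists were chosen with earlier results of these data known. The gene lists could not be used, since 0 of 161 identifiers were found in GENCODE M21 or the RefSeq tables. Identifiers were printed by a rule, the 2 lowest and 2 highest ratios of G418 over control. Alternatives were other read minimums (5000, 20000), half-lives within 1 to 24 h, up to 24 h or up to 8 h, means, other folds (1.5, 3), centring, leaving out the top 10 mRNAs and other comparison ranges. The functions were tested on simulated data. The software was Python 3.11.15 with pandas 2.3.3, numpy 2.4.6, matplotlib 3.10.9 and scipy 1.17.1.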

Additional observations from a re-analysis of the deposited data

How the results depend on the processing

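Of 91 alternative values, 55 stayed within their limits, 36 moved and 0 changed sign. The limits were the 95% binomial interval of a median or share over mRNAs, or 1.5 times a count. Since mRNAs are not replicates, these limits only sort the values by size and do not measure replicate error. Median half-lives depended on the read minimum: in control 245 min at 5000 reads and 436 min at 20000, with G418 323 min and with puromycin 457 min at 20000. The cause was not tested. Means in place of medians gave half-lives of 422 min (control), 342 min (G418) and 527 min (puromycin), and log2 ratios of 0.19 for puromycin over control and -0.41 for G418 over puromycin. With half-lives of at most 8 h, chosen after seeing the data, the medians were 211 min (control), 201 min (G418) and 223 min (puromycin), and G418 over puromycin was -0.22, values that follow in part from leaving out long half-lives. Centring gave median log2 ratios of -0.090 for G418 over control, 0.015 for puromycin over control and -0.18 for G418 over puromycin, shares with the shorter half-life of 68.3%, 46.0% and 72.0%, 2 mRNAs at least 2-fold longer with G418 than with puromycin, 16 in the order puromycin, G418, control and 14 in the order puromycin, control, G418. At 1.5-fold and 3-fold, the counts were 25 and 2 shorter and 6 and 1 longer for G418 over control. They were 10 and 0 shorter and 24 and 7 longer for puromycin over control. For G418 over puromycin they were 41 and 10 shorter, with 4 longer at 1.5-fold. At 1.5-fold, 24.2% of all mRNAs were shorter and 17.5% longer for G418 over control, against 15.5% and 3.73% of abundant mRNAs. For puromycin over control these shares were 20.4% and 24.3%, against 6.21% and 14.9%. For G418 over puromycin they were 26.2% and 16.4%, against 25.5% and 2.48%. At 3-fold, the shares of all mRNAs were 4.65% and 3.50%, 4.58% and 5.08%, and 5.24% and 3.31% for the same ratios. With half-lives of at most 24 h, also chosen after seeing the data, 6 mRNAs were at least 2-fold longer for puromycin over control, 7 at least 2-fold shorter for G418 over puromycin and 5 in the G418-sensitive order, counts that follow from leaving out half-lives beyond the chase. The differences between abundant mRNAs and the comparison group stayed within their limits with other comparison ranges (1000 to 5000 reads, all below 10000 reads). These ranges lie within the comparison group or contain it, so little movement was possible and no conclusion is drawn from it. No paired analysis was possible because the replicates are combined in a single half-life for each condition, so replicates could neither be paired nor left out.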

Other observations

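Puromycin half-lives beyond the 24 h chase were frequent among the abundant mRNAs. Of the 40 such mRNAs in the whole table, 14 had at least 10000 reads and 8 had 1000 to 10000 reads, while these groups held 161 and 3086 mRNAs. The 14 mRNAs had puromycin half-lives from 1455 to 3057 min, and their median half-life was 756 min in control and 628 min with G418. In 13 of them the G418 half-life was at most 1/2 of that with puromycin, in 8 the puromycin half-life was at least 2-fold longer than in control, and in 10 the G418 half-life was shorter than in control. The first 2 of these counts contain the puromycin half-life by which the mRNAs were picked, so high counts follow from the choice and are read as no result. The third, 10 of 14, stands beside 124 of the 161 abundant mRNAs (77.0%) and 55.7% of all mRNAs. It is not read as particular to these mRNAs. The 14 mRNAs had between 10092 and 289411 reads. A half-life beyond the chase is an extrapolation of the fitted curve, and the quality of these fits was not analysed here.

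At the other end, 3 of the 161 abundant mRNAs were below the 5th percentile of all mRNAs in control (74.0 min), 3 with G418 and 1 with puromycin. The half-life was below 1 h in 1 condition for 1 of the 161 abundant mRNAs, with puromycin. At least 1 half-life was below 1 h for 73 of the 3086 mRNAs of the comparison group and 695 of all 10325.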
